A study of Mus musculus with 6 samples.

Results

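The zinc-dependent histone deacetylase genes on the mouse autosomes are Hdac1, Hdac2, Hdac3, Hdac4, Hdac5, Hdac7, Hdac9, Hdac10 and Hdac11, 9 of the 21924 protein-coding genes in the annotation used here (GENCODE mouse release M21). Every H3K4me3 peak within 1 kb of any annotated transcript start of these genes was taken, which gave 74 of the 227418 peaks in 6 peak lists. H3K4me3 is trimethylation of lysine 4 on histone H3, a mark laid down around the starts of genes that are active or poised.

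The lists came from striatal progenitor cells of strain C57BL/6, all kept for 24 hours in medium without serum. Q7SST is the wild-type line STHdhQ7 with the vehicle DMSO, and Q111SST is the mutant line STHdhQ111, a homozygous knock-in of expanded huntingtin, with the same vehicle. The other 4 lists came from STHdhQ111 cells given 10 uM of cyproheptadine, loxapine, diacylglycerol kinase inhibitor II (DKI) or meclizine. Each genotype is 1 conditionally immortalised cell line, so genotype and line cannot be told apart. The design text speaks of triplicate treatment, but there was 1 peak list per condition and whether replicates were pooled is not stated, so no difference below has a replicate error and none was tested.

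Histone deacetylases remove acetyl groups from lysines, which closes chromatin when the substrate is a histone tail. Class I enzymes (Hdac1, Hdac2, Hdac3) are nuclear and work inside corepressor complexes. Class IIa enzymes (Hdac4, Hdac5, Hdac7, Hdac9) have weak catalytic activity of their own, shuttle between nucleus and cytoplasm, and repress MEF2 transcription factors in neurons and muscle. Hdac10 is a class IIb enzyme that acts on polyamines, and Hdac11 is the single class IV enzyme, which removes long fatty acyl groups from lysines. Deacetylases have been studied for years in Huntington's disease because mutant huntingtin disturbs acetyltransferases.

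The lists held 30758 to 45564 peaks each, with DKI the shortest and loxapine the longest. No read totals were used, and sequencing depth is unknown. The score of a peak starts at 10 in each list and its scale is not stated, so strength is given as a percentile of a peak's score among all peaks of its own list. Of the genes that mark cell types, all 4 mesenchymal genes had a start-site peak in all 6 lists and all 4 liver and muscle genes had none. Of 10 ventral forebrain and striatal genes, 6 had a peak in all 6 lists, while Gsx2, Six3 and Bcl11b had one only in Q7SST and Isl1 in none. Of 6 neural progenitor genes only Notch1 was marked in all 6 lists, with Nes absent with cyproheptadine and Sox2 absent in Q7SST. The label of striatal progenitor cells was thus met by part of its markers. Of 6 genes of mature striatal neurons, the dopamine receptor genes Drd1 and Drd2 had no peak in any list, while Rgs9, Penk, Ppp1r1b and Adora2a had one in Q7SST (percentiles 80.8, 63.5, 49.1 and 28.3) and all but Adora2a also in some mutant lists. Of 4 astrocyte genes only Slc1a3 was marked in every list, and of 4 microglial and 3 endothelial genes none was, with 0 or 1 of each marked per list.

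The start-site sequences of 3 class IIa genes are shown because their peaks differed between lists in position, not only in strength. They run 5′ to 3′ on the minus strand of GRCm38, from 250 bases before to 50 bases after a start, and capitals mark the bases that lay under a peak of the list named. The Hdac9 sequence (chr12:34528840-34529139) is marked for Q111SST, the Hdac7 sequence (chr15:97831718-97832017) also for Q111SST, and the Hdac4 coding start (chr1:92180292-92180591) for DKI. The fourth sequence is the outermost annotated start of Hdac4 (chr1:92195645-92195944), which lay wholly under a peak in Q7SST and far from any peak in the mutant lists. The first 3 come from the RefSeq promoter table of GRCm38.p6 and the fourth was read from that genome.
Hdac9: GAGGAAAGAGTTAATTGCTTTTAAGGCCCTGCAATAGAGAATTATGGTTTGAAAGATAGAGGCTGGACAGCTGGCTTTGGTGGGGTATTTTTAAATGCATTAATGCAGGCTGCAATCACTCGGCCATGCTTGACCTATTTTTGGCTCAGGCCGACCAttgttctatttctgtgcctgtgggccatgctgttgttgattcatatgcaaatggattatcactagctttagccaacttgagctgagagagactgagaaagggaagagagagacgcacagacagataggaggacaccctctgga
Hdac7: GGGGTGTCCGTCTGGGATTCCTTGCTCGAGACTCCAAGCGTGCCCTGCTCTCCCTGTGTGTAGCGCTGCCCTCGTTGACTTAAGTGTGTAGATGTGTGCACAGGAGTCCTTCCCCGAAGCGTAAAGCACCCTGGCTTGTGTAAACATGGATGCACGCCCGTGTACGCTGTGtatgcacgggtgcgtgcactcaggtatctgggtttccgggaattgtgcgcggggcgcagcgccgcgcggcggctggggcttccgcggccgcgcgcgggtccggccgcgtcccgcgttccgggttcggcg
Hdac4 coding start: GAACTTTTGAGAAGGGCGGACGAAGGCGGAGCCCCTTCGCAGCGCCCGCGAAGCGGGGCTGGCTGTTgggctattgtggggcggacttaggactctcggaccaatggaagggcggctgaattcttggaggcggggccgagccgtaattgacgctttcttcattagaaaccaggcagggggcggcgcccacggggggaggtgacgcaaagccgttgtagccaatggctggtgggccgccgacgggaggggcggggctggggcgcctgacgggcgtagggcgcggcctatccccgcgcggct
Hdac4 first start: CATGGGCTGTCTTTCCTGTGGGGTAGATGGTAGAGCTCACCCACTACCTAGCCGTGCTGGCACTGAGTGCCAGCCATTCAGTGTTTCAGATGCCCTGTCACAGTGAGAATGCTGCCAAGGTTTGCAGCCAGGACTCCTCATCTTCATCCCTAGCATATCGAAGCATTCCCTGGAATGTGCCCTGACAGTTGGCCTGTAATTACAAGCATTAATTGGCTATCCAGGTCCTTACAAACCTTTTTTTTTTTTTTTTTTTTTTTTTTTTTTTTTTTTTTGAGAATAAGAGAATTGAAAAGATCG

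These windows differed in base composition. The Hdac9 window was 45.3% G and C with 3 CpG dinucleotides, and the Hdac4 first start was 43.3% with 3. The Hdac4 coding start was 68.0% with 32 CpG, and the Hdac7 window was 65.7% with 35. Across all 32851 RefSeq mouse promoters of this length the median was 52.7% G and C with 7 CpG, and 26.5% held at least 20. The Hdac9 window was thus CpG-poor, while the marked starts of Hdac2 with 36 CpG and Hdac11 with 22 were CpG-rich and that of Hdac5 held 18.

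A search of both strands found the GC box GGGCGG 5 times in the Hdac4 coding window and once or not at all in the other member windows, while 35.7% of all promoters held it at least once. The CCAAT box occurred 2 times each in the Hdac4 coding window and the Hdac5 window. It occurred 1 time each in the Hdac11 window and at the Hdac4 first start, and 37.4% of all promoters held one. The Hdac9 window held none of the 6 motifs searched. These were the GC box, CCAAT, the TATA box TATAAA (13.6% of promoters), the E-box CACGTG (7.15%), the cyclic AMP element TGACGTCA (1.79%) and the MEF2 motif (3.19%). The MEF2 motif was found in 1 member promoter, that of Hdac5. Matches of different motifs may overlap, and a match is a description of letters only. The search covered 10 promoters of 6 of the 9 members (Hdac2, Hdac4, Hdac5, Hdac7, Hdac9 and Hdac11). Hdac1 and Hdac10 had no promoter entry, and Hdac3 on chromosome 18 was left out, so nothing is said of these genes.

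All 9 deacetylase genes had a start-site peak in all 6 lists. For reading that count, 59.9% of all coding genes were marked in Q7SST, 58.3% in Q111SST, 58.1% with loxapine, 55.3% with cyproheptadine, 55.7% with DKI and 58.6% with meclizine. The share marked in all 6 lists was 53.4%. No member was gained or lost against Q111SST in any of the 5 comparisons, where 9.15% of genes marked in either list changed in Q7SST, 3.79% with loxapine, 6.19% with cyproheptadine, 5.38% with DKI and 3.07% with meclizine. The X-linked deacetylase genes Hdac6 and Hdac8, which are not among the members, were also marked in every list. Here the genes differed between lists in the strength, width and position of their peaks, not in whether they had one. With scores of at least 47, or with a peak required over a start, presence also differed between lists.

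The median percentile of the 9 members was equal to or below that of all marked coding genes in each list. It was 80.4 in Q7SST, where all marked genes also had 80.4, and 81.3 against 82.6 in Q111SST. Loxapine gave 82.4 against 83.0, cyproheptadine 74.9 against 79.5, meclizine 80.3 against 80.3 and DKI 71.0 against 76.3. Hdac10 ranked first of the 9 in every list, and Hdac9 and Hdac11 held the bottom pair of ranks in every list.

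**Figure D1:**
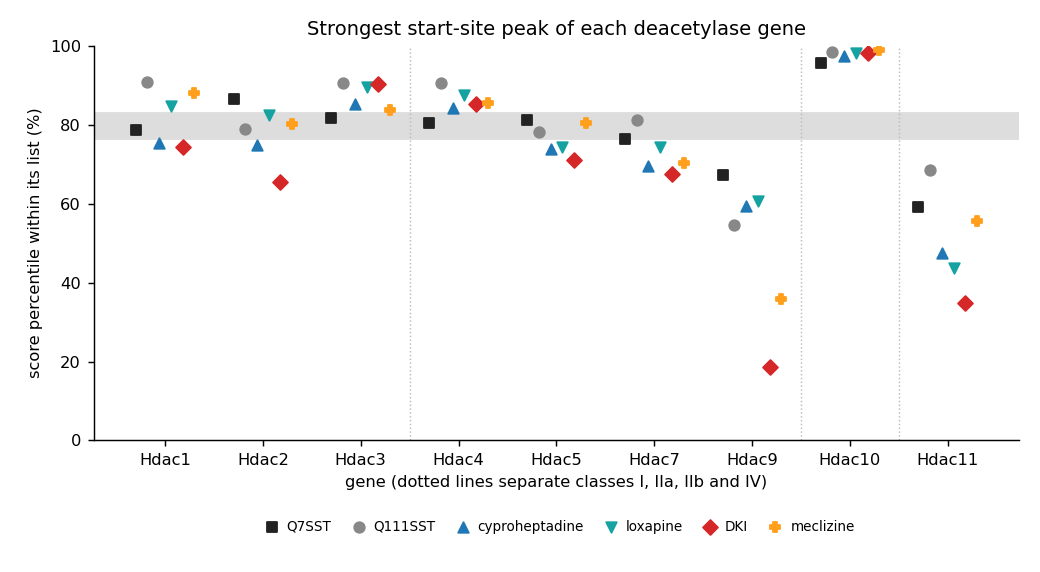
Score percentile (%) of the strongest start-site peak of each deacetylase gene (horizontal axis, by class) in each of the 6 lists (symbols, 1 list per condition). The grey band spans the medians of all marked coding genes in the 6 lists, 76.3 to 83.0. Hdac10 lies above the band in every list, Hdac9 and Hdac11 lie below it in every list, and Hdac9 spreads from 18.5 to 67.2.

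Among the class I genes, Hdac1, a catalytic subunit of the NuRD, Sin3 and CoREST complexes, was at percentile 78.7 in Q7SST, 90.7 in Q111SST, 84.9 with loxapine, 75.4 with cyproheptadine, 74.3 with DKI and 88.1 with meclizine. Q111SST was the highest list for Hdac1 and DKI the lowest, 16.4 points apart. Its peak was 1601 bp wide in Q7SST, the narrowest, and 1903 to 2152 bp in the 5 mutant lists. How many other genes had their narrowest peak in the wild-type list was not counted. In each list a single peak lay over the coding start (chr4:129542713, minus strand) and covered the first exon with its untranslated and coding parts. The other 4 start groups of Hdac1, all of noncoding transcripts, had no peak. A start group is a set of annotated starts chained at distances of up to 1 kb.

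Hdac2, the paralog that shares these complexes with Hdac1, had percentiles of 86.5 in Q7SST, 79.0 in Q111SST, 82.4 with loxapine, 74.9 with cyproheptadine, 65.4 with DKI and 80.1 with meclizine. Here Q7SST was the highest list and DKI again the lowest. The pair stood in opposite order in the vehicle lists, with Hdac2 above Hdac1 in Q7SST and Hdac1 above Hdac2 in Q111SST. The Hdac2 peak kept a width of 1890 to 2196 bp and covered the coding starts at chr10:36974544-36974570 in every list.

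Hdac3, the catalytic subunit of the NCoR corepressor complex, had percentiles of 81.7 in Q7SST, 90.5 in Q111SST, 89.6 with loxapine, 85.3 with cyproheptadine, 90.2 with DKI and 83.8 with meclizine. Q7SST was the lowest list for Hdac3, and DKI differed from Q111SST by less than 1 point. The peak was narrowest with DKI at 1154 bp and 1442 to 1678 bp wide elsewhere. Its promoter on chromosome 18 is shared: the start of the divergent gene Rell2 lies 63 bp from an Hdac3 start and was under the same peak in all 6 lists, so the peak cannot be assigned to 1 of these genes.

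Among the class IIa genes, Hdac4 had percentiles of 80.4 in Q7SST, 90.5 in Q111SST, 87.5 with loxapine, 84.3 with cyproheptadine, 85.2 with DKI and 85.5 with meclizine. Hdac5 had percentiles of 81.1 in Q7SST, 78.3 in Q111SST, 74.4 with loxapine, 73.8 with cyproheptadine, 71.0 with DKI and 80.3 with meclizine. Both genes stayed within about 10 points over the lists among all peaks, and within 21.7 points (Hdac4) and 18.5 points (Hdac5) among start-site peaks alone. On the scale of all peaks Hdac4 had its low end in Q7SST and Hdac5 its high end there. The strongest Hdac4 peak lay downstream of the coding starts at chr1:92180297-92180341 in Q7SST, where the upstream one was at 78.3. In the other lists with separate peaks the strongest lay upstream of these starts.

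Hdac7, a class IIa gene known for its part in blood vessels and the thymus, had percentiles of 76.5 in Q7SST, 81.3 in Q111SST, 74.4 with loxapine, 69.7 with cyproheptadine, 67.4 with DKI and 70.3 with meclizine. The Q7SST value is that of a peak downstream of the starts, while those of Q111SST, cyproheptadine and DKI are of a peak upstream. The upstream peak in Q7SST was at 61.9, below those with cyproheptadine and DKI. With peaks within 5 kb counted, Hdac7 was higher than in Q111SST with loxapine (2.31 points), DKI (7.53) and meclizine (9.0). Hdac9, which is expressed in brain, heart and skeletal muscle, had percentiles of 67.2 in Q7SST, 54.7 in Q111SST, 60.8 with loxapine, 59.3 with cyproheptadine, 18.5 with DKI and 35.9 with meclizine. The scores behind these were 79, 49, 60, 51, 21 and 38 in the same order. Q7SST was the highest list for Hdac9, and DKI and meclizine stood apart at the low end.

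Hdac10 was the strongest member, with percentiles of 95.7 in Q7SST, 98.4 in Q111SST, 98.1 with loxapine, 97.4 with cyproheptadine, 98.0 with DKI and 98.8 with meclizine. Its scores ran from 152 with cyproheptadine to 247 with meclizine, and its widths from 1158 to 1423 bp. The peak covered 6 annotated starts in every list. It was narrower than the median start-site peak in every list, where 27.3 to 35.7% of marked genes had a narrower peak, so the strongest deacetylase peak was not a wide one.

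Hdac11 was at percentile 59.1 in Q7SST, 68.5 in Q111SST, 43.7 with loxapine, 47.6 with cyproheptadine, 34.8 with DKI and 55.5 with meclizine. Q111SST was the highest list and DKI the lowest, 33.7 points apart, and all 4 compound lists lay below both vehicle lists. The share of all genes in that order was not counted. The median over all genes was also below Q111SST with each compound. Its peak was 652 bp wide with DKI and 1163 bp with Q7SST, at the coding start group chr6:91156665-91157397 on the plus strand.

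The range over the 6 lists, among all peaks, was 48.8 percentile points for Hdac9, larger than in 97.8% of the 11713 coding genes marked in every list, and 33.7 points for Hdac11, larger than in 91.0%. The median gene had a range of 14.4 points. Hdac10 had 3.12 points, and only 4.13% of genes had a smaller range, although a gene near the top of a list has little room to move. Ranked among start-site peaks alone the order was another, with ranges of 32.0 points for Hdac2, 30.7 for Hdac1, 25.6 for Hdac3, 23.2 for Hdac9, 21.7 for Hdac4, 18.5 for Hdac5, 16.5 for Hdac7, 15.1 for Hdac11 and 8.15 for Hdac10. The gene whose percentiles over the 6 lists lay nearest to those of Hdac9 among 11712 compared was Sh3bgrl2, at a distance (root of the summed squared differences) of 14.4 points.

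Against Q111SST, the mutant line with vehicle, the wild-type list had 1 member at least 10 points higher (Hdac9) and 2 at least 10 points lower (Hdac1 and Hdac4). Among all coding genes marked in both lists, 8.85% were that much higher and 13.0% that much lower. Hdac9 differed by 12.6 points, from 54.7 to 67.2, while Hdac1 differed by -12.0 points and Hdac4 by -10.1, at the edge of the threshold. Ranked among start-site peaks alone, Hdac9 differed by 14.3 points, Hdac1 by -26.2 and Hdac4 by -21.7. With lists of equal size Hdac2 (10.7) was also at least 10 points higher and Hdac3 (-10.3) lower, and among start-site peaks 3 members were higher and 3 lower. The shares of all genes were not counted at these 2 settings. The members' median difference was -4.85 points, against -1.04 over all genes.

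The values of Hdac11 and Hdac9 with the compounds are set side by side, since all comparisons share the single Q111SST list. Hdac11 differed by -33.7 points with DKI, -24.7 with loxapine, -20.9 with cyproheptadine and -12.9 with meclizine. Hdac9 differed by 4.63 points with cyproheptadine and 6.08 with loxapine, but by -36.2 with DKI and -18.7 with meclizine. Hdac11 thus lay below Q111SST with every compound, and Hdac9 lay below it with DKI and meclizine only. Ranked among start-site peaks alone, Hdac9 differed by -8.89 points with DKI and -5.33 with meclizine, and Hdac11 by -8.16 with meclizine, all under 10 points. On that scale Hdac11 differed by -15.1 points with DKI, -14.5 with loxapine and -12.2 with cyproheptadine.

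With cyproheptadine, Hdac1 (-15.2), Hdac7 (-11.6) and Hdac11 were at least 10 points lower and no member was 10 points higher, where 25.9% of all genes were that much lower and 3.48% higher. With loxapine Hdac11 alone was at least 10 points lower and none higher, where 9.41% of genes were lower and 7.10% higher. With meclizine Hdac7 (-11.0), Hdac9 and Hdac11 were at least 10 points lower and none higher, where 10.0% of genes were lower and 4.18% higher. These calls moved with the setting. With lists of equal size, cyproheptadine had Hdac9 14.9 points higher and Hdac7 at -8.71, and loxapine had Hdac11 at -41.9, Hdac7 at -13.4 and Hdac1 at -10.2. Each compound list then had 3 members past 10 points. Among start-site peaks 4 were past 10 points with loxapine, 4 with cyproheptadine, 3 with DKI and 2 with meclizine. The shares of all genes above hold for uncut lists ranked among all peaks. None was counted at these other settings, so these counts have nothing to be read against.

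With DKI all 9 members were lower than in Q111SST, 5 of them by at least 10 points: Hdac1 (-16.4), Hdac2 (-13.6), Hdac7 (-13.9), Hdac9 and Hdac11. In that list 38.8% of all genes were at least 10 points lower and 3.55% higher. The members' median difference was -13.6 points and that of all genes -6.57, so most genes were lower in this list too. Hdac3 (-0.26) and Hdac10 (-0.38) were within 1 point of Q111SST. DKI was also the shortest list. With every list reduced to its 30758 strongest peaks, the members' median was -7.01 points, with Hdac1 at -13.5, Hdac9 at -22.0 and Hdac11 at -23.8 still past 10 points. Hdac2 at -7.01 and Hdac7 at -8.02 were no longer past it, and Hdac3 at 2.73 and Hdac10 at 0.12 stood above Q111SST.

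For the other compounds the members' median differences were -5.14 points with cyproheptadine, -2.96 with loxapine and -4.99 with meclizine, and those of all genes were -3.74, -0.35 and -1.54. In each of the 5 comparisons the members' median was the lower value.

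**Figure D2:**
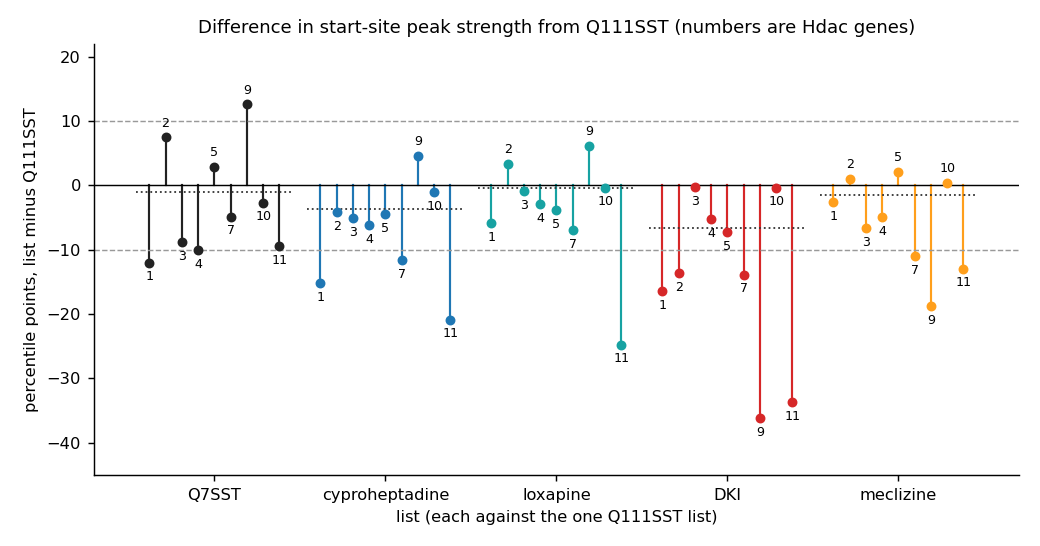
Difference in score percentile (points, list minus Q111SST) for each of the 9 genes, drawn as 1 point with a stem and the gene's number, in the 5 lists compared with Q111SST. Dashed lines mark 10 points and dotted lines the median over all coding genes. Hdac11 is below 0 in all 5 lists, and with DKI all 9 genes are below 0, Hdac9 lowest at -36.2. The median over all coding genes is also below 0 in all 5 lists.

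Peak width gave the clearest contrast for Hdac9. Its strongest peak was 2932 bp wide in Q7SST, 701 bp in Q111SST, 911 bp with loxapine, 578 bp with cyproheptadine, 506 bp with DKI and 873 bp with meclizine. The wild-type peak was wider than 94.1% of the start-site peaks of its list, while the mutant peaks were wider than 5.75 to 13.0% of theirs. It was 3.22 times as wide as the widest mutant peak. Only 54 of the 11713 genes marked in every list, 0.461%, had a wild-type peak at least 2 times as wide as each mutant peak.

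The Hdac9 peak also lay differently. The marked start group (chr12:34528304-34528874, minus strand) holds 6 coding transcripts with 3 distinct starts and lies inside the annotated gene, downstream of 3 outer starts, 1 of them coding, that had no peak within 1 kb. The Q7SST peak (chr12:34526714-34529645) covered all 3 starts and ran 1614 bp past the middle one, over 338 bp of exon and 2594 bp of intron. The peaks of Q111SST, cyproheptadine and loxapine stopped 109, 123 and 107 bp upstream of the first start of the group. Those of DKI and meclizine covered that start and ended 69 and 139 bp beyond it. In the mutant lists the mark was thus on the upstream side of the starts, as the capitals in the Hdac9 sequence show for Q111SST, and in the wild-type list it extended into the gene.

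**Figure D3:**
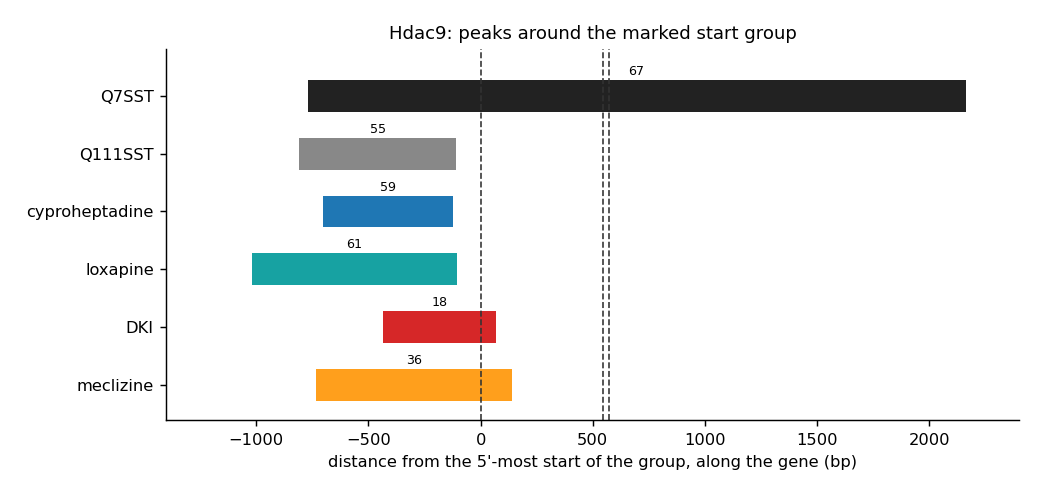
Start-site peaks of Hdac9 in the 6 lists (bars, 1 row per list), along the gene in bp from the first start of the group. Dashed lines are the 3 distinct annotated starts and the number above each bar is its score percentile. The Q7SST bar is 2932 bp long and crosses all 3 starts, while the mutant bars are 506 to 911 bp long and lie wholly or mostly upstream of the first.

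The wild-type list also had start-site peaks of Gsx2, Six3 and Bcl11b, factors of the ventral forebrain, that the mutant lists lacked. It lacked Sox2, a progenitor factor that the 5 mutant lists had. Whether these line differences have a part in the Hdac9 contrast was not tested.

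Hdac4 had a start that was marked only in the wild-type list. Its outermost start group (chr1:92195694-92195699, minus strand), of 2 noncoding transcripts, lay under a Q7SST peak of 752 bp (chr1:92195474-92196225, score 74, percentile 65.0). In the mutant lists the nearest peak was 14160 to 14339 bp away. Of the 17510 start groups of coding genes marked in any list, 5.91% were marked in Q7SST alone. The sequence under that peak, given above as the Hdac4 first start, is CpG-poor and holds a long run of T.

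Hdac4 also has coding starts at chr1:92148393 and chr1:91975501, which had no peak within 1 kb in any list. Its marked group of coding starts (chr1:92180297-92180341) was flanked rather than covered in 5 lists. Peaks of 820 to 934 bp lay upstream and peaks of 675 to 1090 bp lay downstream, with gaps of 862 bp in Q7SST, 884 bp in Q111SST, 899 bp with loxapine, 907 bp with cyproheptadine and 897 bp with DKI. Meclizine had a single peak of 2423 bp across the same starts. From the first to the last marked base the block measured 2403 to 2861 bp in all 6 lists. The jump in the width of the strongest Hdac4 peak, from 820 to 1090 bp in 5 lists to 2423 bp with meclizine, was therefore a closed gap and not a longer block. The sequence given as the Hdac4 coding start lies inside that gap, wholly so in Q7SST, Q111SST, cyproheptadine and loxapine and for its part in lower case with DKI.

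Hdac7 showed the same form. Its marked start group (chr15:97831469-97831767, minus strand) lay in a gap of 866 bp in Q7SST, 858 bp in Q111SST, 896 bp with cyproheptadine and 880 bp with DKI, and under a single peak of 2332 bp with loxapine and 2123 bp with meclizine. From end to end the block was 3285 bp in Q7SST and 1833 to 2341 bp in the mutant lists. Its downstream peak was 1685 bp wide in Q7SST, against 436 to 676 bp in the mutant lists that had a separate one. As for Hdac9, the wild-type mark reached further into the gene.

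The smallest gap between neighbouring peaks anywhere in a list was 773 to 813 bp, and 1.36 to 2.24% of neighbouring pairs were less than 1000 bp apart. The Hdac4 and Hdac7 gaps were therefore close to the shortest that the lists contain. Some marked genes lacked a peak over any start: Hdac7 in Q7SST (11.5% of marked genes), Hdac7 and Hdac9 in Q111SST (11.7%), Hdac4, Hdac7 and Hdac9 with cyproheptadine (18.0%), Hdac4 and Hdac9 with loxapine (16.3%), and Hdac4 and Hdac7 with DKI (15.3%). Meclizine had none (10.6%). Hdac4 in Q7SST and Q111SST is not among these because other starts of the gene were covered there.

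**Figure D4:**
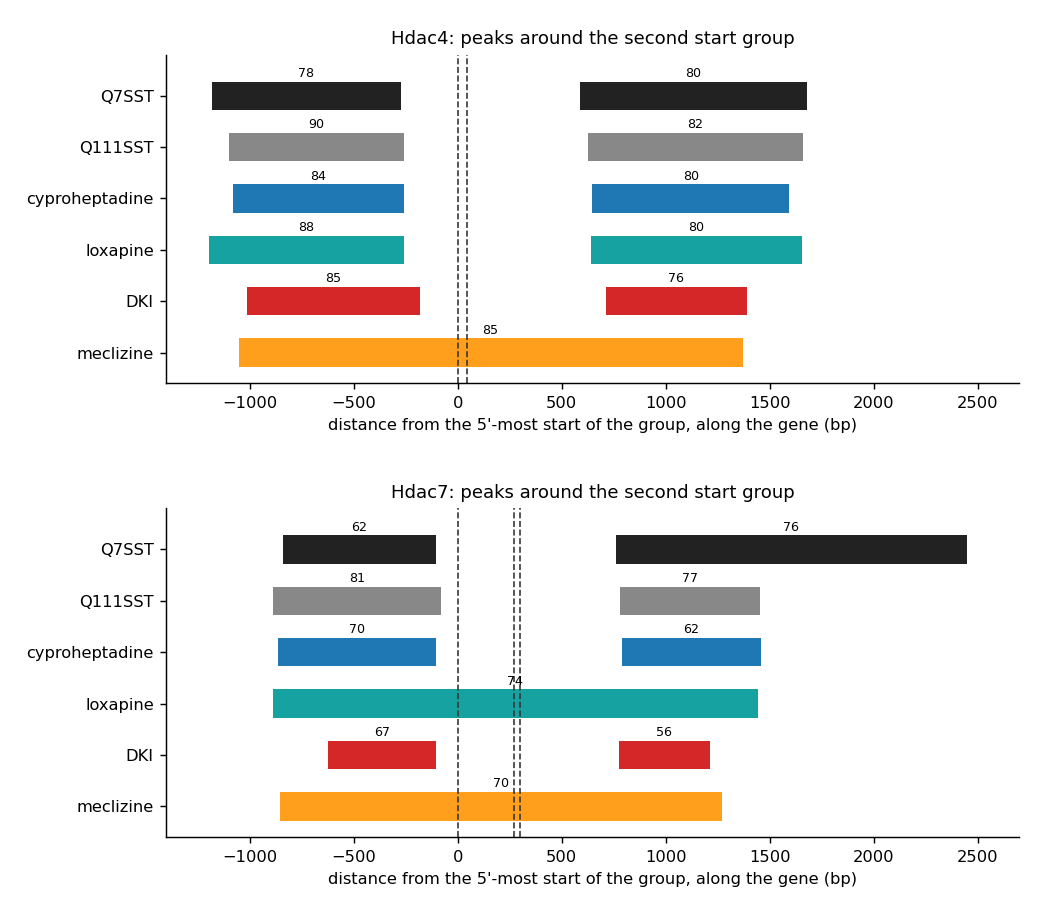
Peaks of Hdac4 (upper panel) and Hdac7 (lower panel) around their marked coding start groups, along the gene in bp from the first start, 1 row per list. Dashed lines are annotated starts and the number above each bar is its score percentile. The Hdac4 starts lie in a gap of 862 to 907 bp in 5 lists and under a single bar with meclizine, and the Hdac7 starts lie in a gap in 4 lists and under a single bar with loxapine and meclizine.

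The widths of the other members varied less. The ratio of the widest to the narrowest list was 1.34 for Hdac1, 1.16 for Hdac2, 1.45 for Hdac3, 1.26 for Hdac5, 1.23 for Hdac10 and 1.78 for Hdac11. It was 2.95 for Hdac4, 4.51 for Hdac7 and 5.79 for Hdac9. The 3 class IIa genes with split or displaced peaks were thus the ones with ratios above 2.

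**Figure D5:**
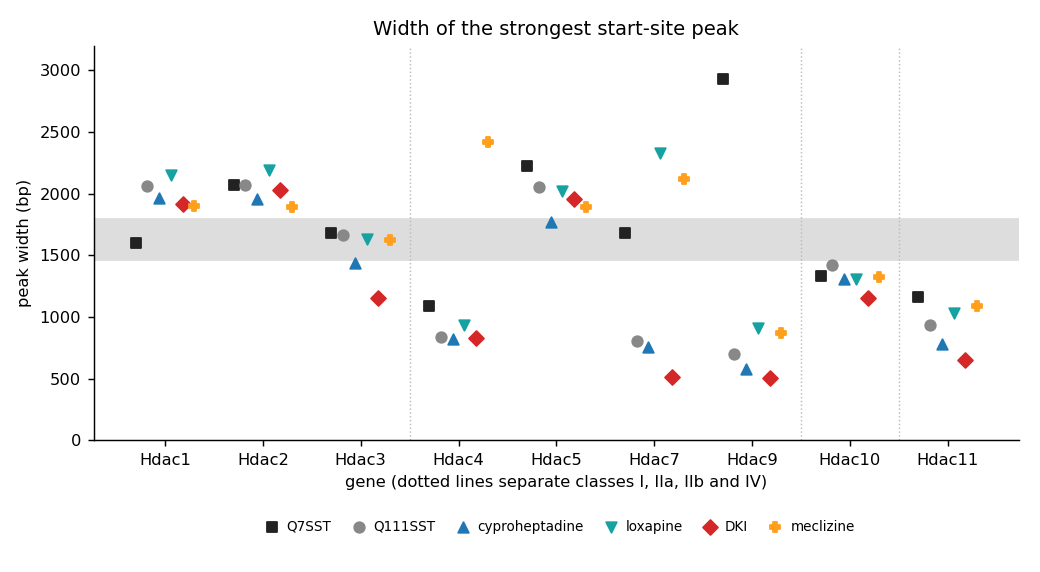
Width in bp of the strongest start-site peak of each gene in each of the 6 lists. The grey band spans the medians of all marked coding genes, 1461 to 1795 bp. Hdac9 stands at 2932 bp in Q7SST and at 506 to 911 bp in the mutant lists, and Hdac4 with meclizine and Hdac7 with loxapine and meclizine stand at 2123 to 2423 bp, where 2 peaks are joined.

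The 9 genes have 37 start groups, of which 11 were marked in Q7SST, 12 in Q111SST, 11 with loxapine, 10 with cyproheptadine, 11 with DKI and 10 with meclizine. Of the 48604 start groups of all coding genes, 29.6 to 32.7% were marked per list. Among the members' groups 10 were marked in all 6 lists, as were 27.7% of all groups. They comprised 1 group for each of the 9 genes and a second group for Hdac5. A further 23 groups were marked in none (64.0% of all groups), 3 in 1 list and 1 in 2 lists.

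More than 1 marked group was found for Hdac4 and Hdac5 in Q7SST (18.7% of genes with several groups), for Hdac4, Hdac5 and Hdac7 in Q111SST (19.1%), for Hdac5 with cyproheptadine (15.8%), for Hdac4 and Hdac5 with loxapine (19.4%), for Hdac5 and Hdac11 with DKI (15.2%) and for Hdac5 with meclizine (18.1%). Hdac5 was the only member with a second marked group in every list.

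The second Hdac5 group (chr11:102218928-102218929, minus strand), with 1 coding transcript, lies inside the gene, downstream of the first. Its peak was 2864 bp wide in Q7SST, 3082 bp in Q111SST, 2944 bp with loxapine, 2879 bp with cyproheptadine, 2791 bp with DKI and 2920 bp with meclizine. It began 0 to 96 bp downstream of that start and ran into the gene. Its percentiles were 44.4, 56.2, 57.3, 61.7, 46.1 and 41.9 in the same order, below those of the first peak in each list. The internal Hdac5 peak was thus wider and weaker than the peak at the 5′ end in all 6 lists. The first Hdac5 start group (chr11:102230124-102230166) lies 4 bp from the start of the microRNA gene Mir8101, which was under the same peak.

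The remaining alternative starts were marked in few lists. A noncoding Hdac4 start at chr1:92113331 had a peak of score 12 in Q111SST (percentile 3.23) and of score 10 with loxapine (percentile 0.75). The Hdac7 start at chr15:97814863 was counted in Q111SST only, from a peak 930 bp away, and the nearest Q7SST peak was 1363 bp away. A noncoding Hdac11 start at chr6:91171764 had a peak 121 bp away with DKI only (score 18, percentile 13.2). The outermost Hdac7 group (chr15:97844164-97844502), which holds 4 coding transcripts, had no peak in any list, the nearest being 3181 bp away with loxapine.

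Member peaks were compared base by base with all peaks of the other list, where an overlap of 1 base counted. Of the 14 peaks in Q111SST, 13 overlapped a Q7SST peak (93.1% of all start-site peaks of coding genes did), 13 a loxapine peak (96.6%), 12 a cyproheptadine peak (91.0%), 12 a DKI peak (91.9%) and 12 a meclizine peak (97.3%). In the other direction, 12 of 13 peaks in Q7SST (91.1%), 12 of 12 with loxapine (96.8%), 12 of 12 with cyproheptadine (98.7%), 12 of 13 with DKI (98.9%) and 10 of 10 with meclizine (97.2%) overlapped a Q111SST peak. The peaks without a Q111SST counterpart were that of the outermost Hdac4 start in Q7SST and that of the internal Hdac11 start with DKI.

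The genes whose products work with the deacetylases were marked almost throughout. Of 45 autosomal coding genes of the corepressor complexes, MEF2 factors and acetyltransferases, 44 were marked in Q7SST and 45 in each of the mutant lists. Of all coding genes, 55.3 to 59.9% were marked in each of the 6 lists. With a peak required over a start, 29 to 35 partners were marked in each list. The partner without a peak in Q7SST was Chd3, a remodelling ATPase of NuRD, with percentiles of 59.0 in Q111SST, 62.7 with loxapine, 41.8 with cyproheptadine, 46.1 with DKI and 44.7 with meclizine. The partners' median percentile was 79.7 in Q7SST, 82.6 in Q111SST, 81.8 with loxapine, 79.5 with cyproheptadine, 75.3 with DKI and 77.5 with meclizine.

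Within the complexes, the strongest and weakest partners in Q111SST were named by rule. In NuRD, the methyl-CpG binding gene Mbd2 was at 93.0 and Mta1 at 45.2. In the Sin3 complex Suds3 was at 97.9 and the scaffold Sin3a at 59.6. In the NCoR complex, Tbl1xr1 was highest at 98.9. In CoREST, the lysine demethylase Kdm1a was at 94.6 and Rcor2 at 67.1, and in the mitotic complex MiDAC, Dnttip1 was at 79.4 and Elmsan1 at 56.2. Hdac1 at 90.7 lay between the strongest and weakest partners in NuRD, Sin3 and CoREST and above both named MiDAC genes. Hdac3 at 90.5 lay below Tbl1xr1.

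Of the MEF2 genes that class IIa enzymes repress, Mef2a was highest at 96.8 in Q111SST and Mef2d lowest at 49.1. Of the acetyltransferases, which add the groups that deacetylases remove, Crebbp was highest at 97.4 and Kat2a lowest at 67.6. Crebbp encodes a coactivator that mutant huntingtin is known to bind.

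Relative to Q111SST, 4 partners were at least 10 points higher and 6 lower in Q7SST, 4 and 2 with loxapine, 0 and 11 with cyproheptadine, 2 and 15 with DKI, and 1 and 6 with meclizine. Of all genes, 8.85% were higher and 13.0% lower in Q7SST, 7.10% and 9.41% with loxapine, 3.48% and 25.9% with cyproheptadine, 3.55% and 38.8% with DKI, and 4.18% and 10.0% with meclizine. The partners' median difference was -2.69 points in Q7SST, 0.29 with loxapine, -0.74 with cyproheptadine, -6.17 with DKI and -3.18 with meclizine. DKI gave the most partners past 10 points on the lower side, as it did for the members and for all genes.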

How the data were processed

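H3K4me3 ChIP-Seq had been done on crosslinked chromatin cut with micrococcal nuclease, and libraries were read as single ends. Per the labels, the submitters' processing notes name Trimmomatic 0.36, Bowtie2, SAMtools 1.3, MACS2 and the build mm10, with no settings, thresholds or input control. The deposited lists hold 1 line per peak, with its position and a score made by the authors, which is a whole number on a scale that is not stated. Positions are 1-based on GRCm38. Each sample's group was taken from its title and genotype label.

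Here, with Python 3.11.15, numpy 2.4.6 and pandas 2.3.3, a gene was called marked where a peak lay within 1 kb of any transcript start. Strength was the percentile of the strongest such peak among all peaks of its list, ties taking the middle rank. Differences from Q111SST were called at 10 percentile points. No p-value was computed, because there was 1 list per condition. The code was tested on simulated peaks with known answers. The partner genes named are those whose presence differed between lists and the highest and lowest of each of 7 groups in Q111SST. A few genes that the naming rules pick are not reported here. The members, partner lists and markers were chosen with earlier results of these data known. Of 46 partners, Trerf1 is not annotated as coding in this release and was left out. The alternatives tried were a score of at least 47, lists cut to 30758 peaks, a peak over the start, a 5 kb window, coding starts only, peaks within 1 kb merged, a 50% reciprocal overlap, and ranks among promoter peaks only.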

Additional observations from a re-analysis of the deposited data

How the results depend on the processing

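No paired analysis was possible because there was 1 list per condition, and for the same reason no replicate could be left out. Depth is unknown for every list. Of 219 recomputed summary values, 181 stayed within 1.5 times a count, 1 percentile point or 1% of a width, and 38 moved. All 9 members stayed marked in all lists with equal list sizes, a 5 kb window, coding starts only and merged peaks. With scores of at least 47, 1 member was lost against Q111SST with cyproheptadine (Hdac11), 1 with loxapine (Hdac11), 2 with DKI (Hdac9, Hdac11) and 1 with meclizine (Hdac9). With a peak required over the start, Q7SST gained 1, cyproheptadine lost 1, loxapine and DKI each gained 1 and lost 1, and meclizine gained 2. A 50% reciprocal overlap gave 1 gained and 1 lost in Q7SST, loxapine and DKI and 2 of each in meclizine. The median percentile over members and lists, 79.5, was 64.2 above the score limit, 74.1 with equal sizes, 81.2 within 5 kb and 46.7 among promoter peaks, where only start-site peaks are ranked. The median width, 1522 bp, was 1631 bp above the score limit, 1674 bp over starts, 1327 bp within 5 kb and 1890 bp after merging. Members at least 10 points lower than Q111SST, 14 over the 5 comparisons, were 8 over starts. Those at least 10 points higher, 1 in the report, were 5 above the score limit, 3 with equal sizes, 2 over starts and 3 among promoter peaks. The shares of all genes past 10 points were not counted under the alternatives. Marked start groups fell over starts to 7 in Q111SST, 6 with cyproheptadine and 7 with DKI, and to 7 with DKI above the score limit. Partners marked fell over starts to 29 with cyproheptadine and 29 with DKI. The wild-type Hdac9 peak stayed 3.22 times as wide as the widest mutant peak, and the first Hdac4 start stayed marked in Q7SST alone, under every alternative that gave a value (for Hdac9, not the score limit or the peak over starts; for Hdac4, not coding starts only).

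Of the single-gene differences from Q111SST, 13 changed sign, 3 of them past 10 points in the report. Those 3 were Hdac4 in Q7SST, 61.7 points over starts, and Hdac7 within 5 kb with DKI (7.53) and meclizine (9.0). Of the 10 under 10 points, Hdac7 within 5 kb was 7.27 in Q7SST and 2.31 with loxapine, and Hdac4 with meclizine was 82.3 over starts. For Hdac4 over starts, the Q111SST peak that counts is the weak internal one. Hdac5 with DKI was 1.18 among promoter peaks, Hdac3 with DKI was 0.42 above the score limit, 2.73 with equal sizes and 6.75 among promoter peaks, Hdac10 with DKI was 0.12 and 0.22 in the last 2, and Hdac2 with cyproheptadine was 0.03 with equal sizes. The members' median difference with meclizine became 0.43 over starts. The cause of the other changes was not tested.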

Other observations

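Deacetylase genes also held peaks far from any annotated start. Counting peaks inside a gene and more than 1 kb from a start of any gene, Hdac9 had 8 in Q7SST, 7 in Q111SST, 13 with loxapine, 8 with cyproheptadine, 6 with DKI and 4 with meclizine. Hdac4 had 2 to 5 per list, Hdac7 had 1 to 3, Hdac5 had 0 or 1, and the other 5 members had 0 in every list. These genes differ in length, from 869516 bp for Hdac9 to 5394 bp for Hdac10, and longer genes offer more room for such peaks. Loxapine was also the longest list. No such count was made for genes of like length, so whether these numbers are high is not known.

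One of these sites was stronger than any start-site peak of Hdac9. It lay at chr12:34075131-34076642 on GRCm38, in an intron near the 3′ end of the gene, 360665 bp from the nearest Hdac9 start, and had a peak in all 6 lists at percentiles of 97.1 to 98.3 and widths of 1162 to 1462 bp. The start-site peak of the same gene reached percentiles of 18.5 to 67.2. The site overlapped no annotated exon, and no transcript of any gene in the annotation started within 1 kb of it. It was 41.1% G and C with 12 CpG in 1512 bp, and 17.9% of it was soft-masked as repeat in the genome file. The 300 bases in its middle (chr12:34075661-34075960, gene strand, GRCm38.p6) are shown because a strong H3K4me3 peak at a CpG-poor site with no annotated start is a place to look at the reads, and capitals mark CpG.
Hdac9 intron: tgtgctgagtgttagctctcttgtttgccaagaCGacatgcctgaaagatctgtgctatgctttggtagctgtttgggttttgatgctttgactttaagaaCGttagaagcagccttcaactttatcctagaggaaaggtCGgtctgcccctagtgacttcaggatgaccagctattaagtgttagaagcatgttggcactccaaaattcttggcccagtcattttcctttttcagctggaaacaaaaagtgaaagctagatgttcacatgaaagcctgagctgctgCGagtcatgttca

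Other internal sites were also found in every list. In Hdac9 they were chr12:34497959-34499724 (percentiles 66.8 to 80.3), chr12:34486838-34488369 (40.8 to 61.9) and chr12:34224368-34225318 (39.1 to 54.7). In Hdac7 the site chr15:97824675-97825856 had percentiles of 62.7 to 72.6 and 34 CpG in 1182 bp. In Hdac4 the site chr1:92041172-92042772 had percentiles of 11.4 to 54.7 and chr1:92129985-92131197 had 4.91 to 29.8. The peaks of this last site did not all overlap each other. None of these sites overlapped an annotated exon, and all 3 further Hdac9 sites were between 37.8 and 41.7% G and C.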
